A study of Homo sapiens with 35 samples.

Results

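The 20q11.21 interval is a stretch of the long arm of chromosome 20 beside the centromere, and human pluripotent stem cell lines often gain an extra copy of it in culture. Its peaks were taken as all peaks with a summit between positions 31000000 and 33500000 (GRCh38) in a single list of open chromatin. These were 540 of 308732 peaks, and the rest of chromosome 20 held 7396. The assay was ATAC-seq, which reads open DNA by where a transposase can cut and tag it, and the cells were blood progenitors made in culture from H1 cells. H1 is a long-established line of human embryonic stem cells. The labels describe 12 doxycycline-treated and 11 untreated libraries of a line named doxee17 (batch 1) and 12 untreated libraries of H1 itself (batch 2), each over 6 days from day 10 to day 20. Per the design text, doxycycline gives ectopic expression of MYC, a growth-promoting transcription factor. That text counts 44 libraries where the labels describe 35, and the labels do not describe the construct. The list gives no value for any library, so treatment, day and line could not be compared, no replicate error exists and no p-value is given. Of 10 genes that mark blood progenitors, all 10 had an end under a peak (from CD34 with 14.8-fold to LYL1 with 191-fold), beside 79.6% of all coding genes. Of 6 pluripotency markers 4 did, led by LIN28A with 37.7-fold, while POU5F1 and DPPA4 did not. Of 4 hepatocyte markers only APOA2 did, and ALB, AHSG and TTR did not. Counted by a summit within 1 kb of an end, the measure used for genes below, the blood progenitor markers numbered 8 of 10, without TAL1 and GATA2. By that measure the pluripotency markers numbered 4 of 6 and the hepatocyte markers 2 of 4, beside 83% of all coding genes. The median fold there was 34.4 for the blood progenitor markers, against 43.5 for all coding genes.

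Several genes of the interval bear on blood and stem cells. BCL2L1 encodes BCL-XL, which blocks mitochondrial cell death, and is the gene most often named as the driver of the stem cell gain. ID1 encodes a protein that binds E proteins and keeps them from DNA, ASXL1 a chromatin regulator that is often mutated in myeloid leukaemia, and DNMT3B a de novo DNA methyltransferase that is high in embryonic stem cells. Clusters of beta-defensin and BPI fold genes, which encode antimicrobial and secreted mucosal proteins, lie toward the edges.

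The promoters of 6 genes show the contrast within the interval. The sequences are RefSeq's for GRCh38.p14, from 250 bases before to 50 bases after a listed start, written 5′ to 3′ on the strand of the gene. The first 3 are the listed starts nearest to the summits at BCL2L1, ASXL1 and ID1, and TTLL9, which encodes a tubulin-modifying enzyme, shows an inner start with a strong peak. The DNMT3B sequence is that of an inner start. The annotated start of that gene has no listed sequence and lies under a peak of 74.8-fold. DEFB118 lies in the longest stretch without a peak. Capitals mark matches, on either strand, to CACGTG (the E-box of MYC and MAX), AGATAA (bound by GATA2 and its relatives), TGTGGT (RUNX factors), GAGGAA (the core of PU.1 sites), CCGGAAG (ETS factors), TGANTCA (AP-1), CCAAT (NFY) and GGGCGG (the GC box). BCL2L1 lies at chr20:31723914-31724213 on the minus strand. The others lie on the plus strand, ASXL1 at chr20:32358081-32358380, ID1 at chr20:31605039-31605338, TTLL9 at chr20:31879567-31879866, DNMT3B at chr20:32779602-32779901 and DEFB118 at chr20:31368351-31368650.
BCL2L1: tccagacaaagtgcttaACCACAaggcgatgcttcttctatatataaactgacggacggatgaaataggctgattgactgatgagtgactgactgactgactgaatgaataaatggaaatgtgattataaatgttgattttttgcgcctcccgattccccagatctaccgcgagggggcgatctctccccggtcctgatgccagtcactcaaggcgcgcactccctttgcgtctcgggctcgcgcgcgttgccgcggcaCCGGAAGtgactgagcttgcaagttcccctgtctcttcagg
ASXL1: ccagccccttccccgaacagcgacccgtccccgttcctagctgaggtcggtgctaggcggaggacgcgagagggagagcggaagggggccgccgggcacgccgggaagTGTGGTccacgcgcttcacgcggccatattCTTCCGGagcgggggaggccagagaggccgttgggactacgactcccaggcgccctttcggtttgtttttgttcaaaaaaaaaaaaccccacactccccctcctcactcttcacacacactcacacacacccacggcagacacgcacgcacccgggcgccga
ID1: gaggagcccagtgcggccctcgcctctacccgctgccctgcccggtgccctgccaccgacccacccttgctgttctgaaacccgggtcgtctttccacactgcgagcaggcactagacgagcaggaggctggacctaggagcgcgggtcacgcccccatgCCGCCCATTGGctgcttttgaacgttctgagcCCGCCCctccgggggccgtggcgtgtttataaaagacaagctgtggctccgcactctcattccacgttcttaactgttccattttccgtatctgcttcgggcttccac
TTLL9: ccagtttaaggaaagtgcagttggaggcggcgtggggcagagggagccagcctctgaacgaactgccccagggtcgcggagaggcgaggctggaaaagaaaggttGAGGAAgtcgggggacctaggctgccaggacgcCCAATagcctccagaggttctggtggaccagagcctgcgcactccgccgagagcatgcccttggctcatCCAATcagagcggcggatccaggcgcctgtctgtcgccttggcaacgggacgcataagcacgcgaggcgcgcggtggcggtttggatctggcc
DNMT3B: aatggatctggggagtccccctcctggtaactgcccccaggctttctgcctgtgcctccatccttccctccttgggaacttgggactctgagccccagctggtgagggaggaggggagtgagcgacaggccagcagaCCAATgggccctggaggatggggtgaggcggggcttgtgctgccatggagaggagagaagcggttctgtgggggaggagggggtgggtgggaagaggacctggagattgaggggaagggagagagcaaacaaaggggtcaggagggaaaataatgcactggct
DEFB118: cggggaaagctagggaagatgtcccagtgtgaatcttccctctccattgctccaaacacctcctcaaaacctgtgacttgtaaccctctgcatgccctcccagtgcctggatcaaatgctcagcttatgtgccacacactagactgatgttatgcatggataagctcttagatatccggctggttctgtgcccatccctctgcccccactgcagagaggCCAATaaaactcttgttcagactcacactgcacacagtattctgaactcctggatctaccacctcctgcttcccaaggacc

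Each of the first 4 starts lay under a strong peak, and the last 2 lay under none. The summit at BCL2L1 was 130 bases from the start and reached 261-fold over background, the highest fold in the interval. At ASXL1 it was 194 bases away with 241-fold, at ID1 12 bases away with 152-fold, and at the inner start of TTLL9 12 bases away with 117-fold. The nearest summit to the inner start of DNMT3B was 1259 bases away, and that to the DEFB118 start 45112 bases away. The 4 open promoters held 20 (BCL2L1), 29 (ASXL1), 22 (ID1) and 23 (TTLL9) CpG pairs, against 3 at the inner start of DNMT3B and 2 at DEFB118. BCL2L1 and ASXL1 each held 1 ETS letter string (CCGGAAG), found in 10.3% of the 35116 promoters of the table, and 1 RUNX string (TGTGGT), found in 13.1%. ID1 held 2 GC boxes and 1 CCAAT, which lies directly beside one of them with no shared base. These occur in 45.0% and 34.6% of all promoters. TTLL9 held 1 GAGGAA (27.9% of all promoters) and 2 CCAAT, and DNMT3B and DEFB118 held 1 CCAAT each. A match is a description and not a binding site.

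Among all listed starts of coding genes in the interval, openness went with CpG content. The table held starts for 33 of the 45 coding genes. The only listed start of CBFA2T2 lies outside the interval, so the 45 starts within it belong to 32 genes. Of the genes with a listed start, 19 of 33 had a summit within 1 kb of one, against a background of 85.2% of such genes on the rest of chromosome 20 and 81.7% of all. The 19 include CBFA2T2, by a summit of 2.85-fold at its start outside the interval. The 26 starts with a summit within 1 kb had a median of 23 CpG pairs (range 1 to 49) and 63.5% GC, against 3 CpG pairs (range 0 to 36) and 52.3% GC at the 19 starts without. Across the table the same medians were 24 and 5 CpG pairs. Within the interval, the starts without a summit were all of beta-defensin or BPI fold genes, apart from 2 of NOL4L and the inner start of DNMT3B. The same holds for the genes without one. CpG content was thus not separated from these gene clusters, and the low share of genes with a summit lies mostly in them. The MYC E-box was found at 2 of the 26 open starts (those of TM9SF4 and MAPRE1) and 0 of the 19 others, with 7.26% of all promoters holding it. CCGGAAG was found at 6 of the 26 and 1 of the 19, beside 15.4% of open and 3.56% of other coding starts of the table. GGGCGG was found at 13 of the 26 (50%) and 3 of the 19 (15.8%), below the 64.9% and 26.2% of the table. Several starts belong to 1 gene and overlap, and starts are not replicates. NOL4L, with 36 and 33 CpG pairs at its 2 listed starts, had no summit within 1 kb of either, and both starts lay under peaks with summits 3886 and 1810 bases away. Other departures were open starts with few CpG pairs, at SUN5 (1), EFCAB8 (3), DEFB121 (3) and BPIFB3 (3), where the highest fold within 1 kb ran from 1.78 at DEFB121 to 15.2 at SUN5.

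The interval was among the most open parts of chromosome 20. It was set against 23 other windows of 2.5 Mb laid end to end from its edges, after leaving out 1 window with a run of over 1 Mb without a peak beside the centromere. It held 216 peaks per Mb, against a median of 116.8 and a range of 18 to 246.8 in the other windows, and only 1 window was denser. Peaks covered 23.8% of its bases, more than in any other window (median 8.19%, range 0.976 to 21.1%). It was also rich in genes, with 45 coding genes against a median of 16. Against the 8 windows with at least 50% as many coding genes, its density was 1.16 times their median, in place of 1.85 times, and its covered share 1.63 times, in place of 2.91 times. Peaks above 100-fold were 2.35 times their median of 8.5, in place of 5 times the median of all 23. The next window outward held 44 coding genes, 184 peaks per Mb and 14.1% covered bases, and the window on the centromere side 1 coding gene and 18 peaks per Mb. Windows are not replicates, so these are ranks and not tests. A constant background of 93.52 overlapping reads or fragments, fitted here and not given with the list, fits the interval as it fits the rest of the list. The fit was checked only where fewer than 1000 overlapped, at 403 of the 540 peaks of the interval. This leaves out the stronger peaks, among them one of 10.8-fold and every peak above 100-fold. Copy number was not measured here, a constant background does not correct for it, and its part in these values was not tested.

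**Figure D1:**
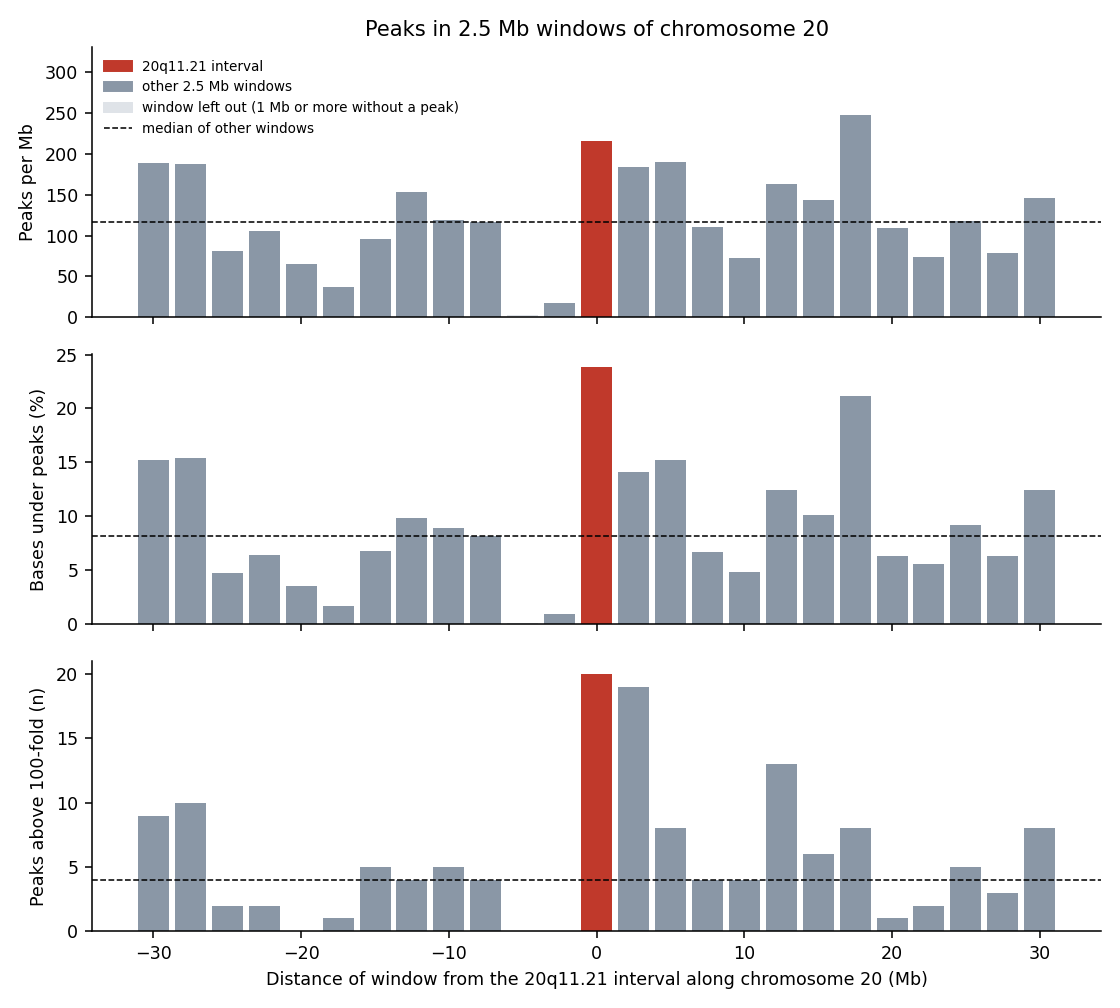
Peaks per Mb, percent of bases under peaks and number of peaks above 100-fold (vertical axes) in 2.5 Mb windows along chromosome 20, by distance from the 20q11.21 interval in Mb (horizontal axis). The interval, in red, stands at 216 peaks per Mb, 23.8% of bases and 20 strong peaks, and the dashed lines are the medians of the other windows (116.8, 8.19% and 4).

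Strong and weak peaks were both frequent in the interval. Peaks above 100-fold numbered 20 of 540 (3.7%), against a background of 1.87% on the rest of chromosome 20 and 2.11% in the whole list. No other window held as many (median 4, highest 19), although the neighbour with 19 had a larger share of its peaks above 100-fold, 4.13%. Peaks under 2-fold numbered 137 (25.4%), against 20% on the rest of chromosome 20 and 21.1% in the whole list. The median fold, 3.21, was therefore low: 21 of the 23 other windows were higher (median of the windows 3.54, range 2.81 to 4.62). The 90th percentile of fold was 40.4 in the interval, against 14.3 to 36.4 in the other windows. At the weakest peak of the interval the fold was 1.36 and at the strongest 261. An exact Poisson 95% interval at the strongest was 258 to 264, which covers counting error only. Its count was inferred from the fold and the fitted background, above the range where that fit was checked.

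The 20 strongest peaks fell into 10 at coding gene ends and 10 away from them. A distal share of 50% compares with 18.1% of the peaks above 100-fold on the rest of chromosome 20 and 26.1% of those in the whole list. No other window of chromosome 20 held more than 3 distal peaks above 100-fold (median 1). Beyond 2.5 kb from every coding gene end the number was also 10. Distal here means a summit more than 1 kb from both ends of every coding gene, and some of the 10 lay at other annotated starts or ends. One summit was 12 bases from the inner start of TTLL9, and 2 were within 1 kb of an end of a long noncoding RNA gene, 10 bases from BCL2L1-AS1 and 108 bases from LOC107985416. All distal peaks together were dense (194.4 per Mb, against a median of 105.6 in the other windows) and had a median fold of 3.19, against 3.45.

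Several distal peaks lay at HM13, ID1 and BCL2L1. The highest, 197-fold and 7154 bases wide, had its summit 3575 bases past an end of HM13, which encodes signal peptide peptidase, and reached over that end. The next, 178-fold (chromosome 20, 31610014 to 31613692), lay between genes 5524 bases downstream of the ID1 start and exceeded the peak on ID1 itself. A 153-fold peak lay inside BCL2L1, 10666 bases from its nearer end. HM13 held another of 144-fold in its body, and a 137-fold peak (32039620 to 32041502) lay between genes, 8309 bases from an end of CCM2L. Further ones were at TM9SF4 (119-fold), C20orf203 (117-fold), TTLL9 (117-fold) and beyond EFCAB8 (100.5-fold). Next below the threshold was an intergenic peak of 93.6-fold near C20orf203.

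**Figure D2:**
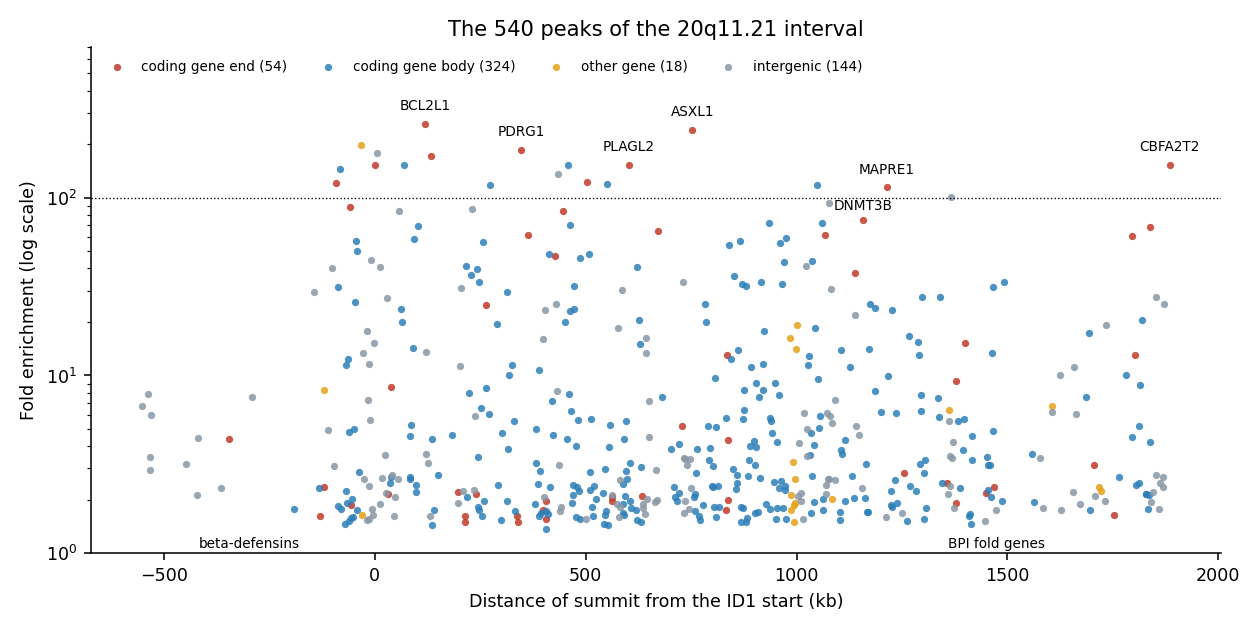
Fold enrichment (vertical axis, log scale) of the 540 peaks by distance of the summit from the ID1 start in kb (horizontal axis), coloured by position relative to genes, with the dotted line at 100-fold. The strongest peaks, 261-fold at BCL2L1 and 241-fold at ASXL1, stand above a broad floor of weak peaks. Few peaks lie over the beta-defensin genes, and those inside BPI fold genes reach at most 33.5-fold.

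Peaks were spread unevenly along the interval. In 10 blocks of 250 kb, covered bases ran from 1.64% in the second block, which holds the beta-defensins, to 54.8% in the third (31500001 to 31750000), which holds HM13, ID1, COX4I2, BCL2L1 and the start of TPX2. It held 78 peaks, 8 of them above 100-fold. Of 247 such blocks with peaks on chromosome 20, where the median was 7.23%, it ranked first by covered bases, and of 11362 on chromosomes 1 to 22 and X it ranked 6th. The seventh block, over NOL4L, C20orf203 and COMMD7, was 49.8% covered and ranked 2nd on the chromosome, and the fifth, over CCM2L, TM9SF4 and PLAGL2, was 37.4% covered and ranked 3rd. The first, second and ninth blocks had no peak above 100-fold, which places them in a tie at rank 97 of the 247 blocks. Without the third block, which was chosen for its value, the interval held 12 peaks above 100-fold, 3 times the median of the other windows in place of 5 times. Of these, 6 were distal, in place of 10, and 20.4% of its bases were covered, against 21.1% in the most covered other window. The covered share was taken over the remaining length, whereas the counts of peaks above 100-fold were not scaled for the 250 kb removed.

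Wide peaks were frequent in the interval. Peaks wider than 5 kb numbered 12 (2.22% of 540), against 0.541% on the rest of chromosome 20 and 0.553% in the whole list, and the other windows held 0 to 5. They made up 16.8% of the covered bases of the interval, against 5.21% on the rest of chromosome 20. The median width was 586 bases, against 381 to 564 in the other windows. The 2 widest, of 16715 and 15949 bases, both lay on BCL2L1.

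BCL2L1 was the most covered gene. Its body of 59512 bases (31664452 to 31723963, minus strand) lay 90.1% under peaks, first of 283 coding genes of 20 kb or more on chromosome 20 and 15th of 10991 in all. The widest peak reached from 31707848 to 31724562, over the 5′ end, with its summit at the promoter printed above. Inside the gene, 48.8 kb from the 5′ end, stood the 153-fold peak of 15949 bases. These peaks each cover an end of the antisense gene BCL2L1-AS1. Peaks of 69.7-fold and 58.4-fold lay 17.1 and 24.6 kb from the 5′ end. At the 3′ end a peak of 84.6-fold reached past the gene. Of the 14 peaks over BCL2L1, 6 exceeded 20-fold, and the lowest had 2.22-fold. A wide peak is given 1 fold, that of its summit, so the fold does not hold along its whole width.

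**Figure D3:**
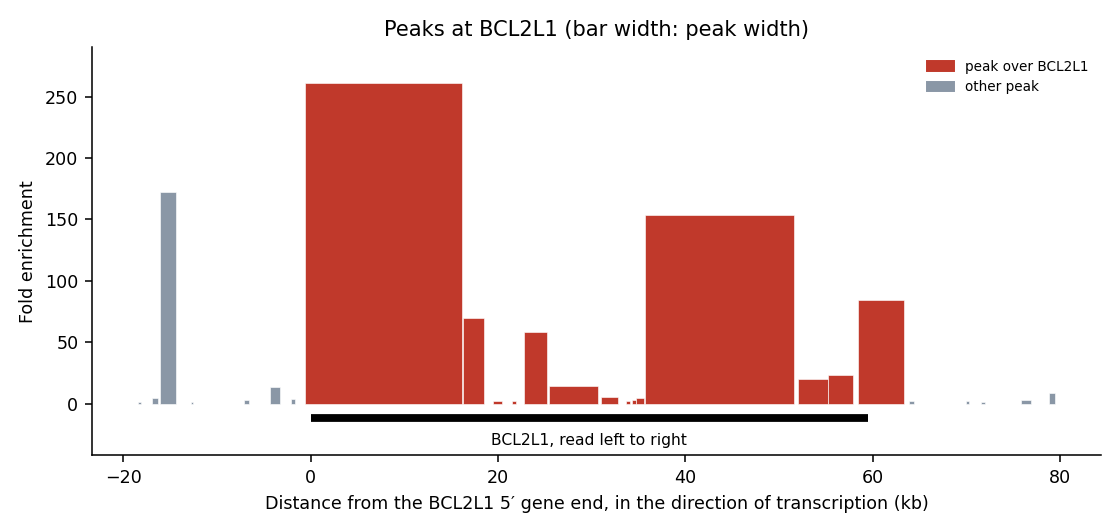
Fold enrichment at the summit (vertical axis) of each peak at BCL2L1, drawn at its true width, by distance from the 5′ gene end in kb along the direction of transcription (horizontal axis). Peaks over the gene, in red, cover 90.1% of it, led by the 261-fold peak at the 5′ end and the 153-fold peak near 48.8 kb, and the tall peak upstream (172-fold) lies at TPX2.

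Other long genes of the interval were also broadly covered. Of 24 coding genes of 20 kb or more, 5 had over 50% of the body under peaks, against a background of 1.16% of such genes on the rest of chromosome 20 (3 of 259) and 2.5% of all. NOL4L, which has been found fused to other genes in leukaemia, lay 65.7% under 58 peaks, 11 of them above 20-fold, with 71.8-fold the highest. HM13 was covered to 59.0% and C20orf203 to 52.1%. At the low end were TPX2 with 4.60% and BPIFB4 with 2.84%. The median was 19.4%, against 11.3% on the rest of chromosome 20 and 9.41% over all coding genes of this length.

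**Figure D4:**
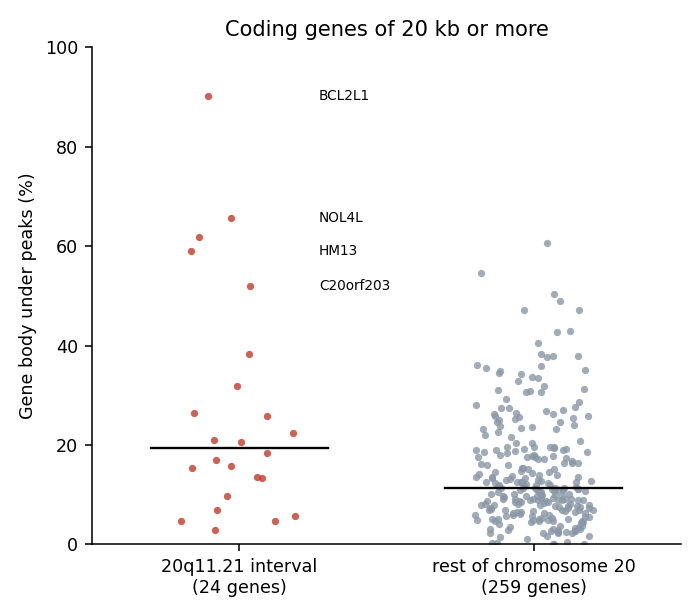
Percent of the gene body under peaks (vertical axis) for coding genes of 20 kb or more in the interval (red, left) and on the rest of chromosome 20 (grey, right), with 1 point per gene and a line at each median (19.4% and 11.3%). BCL2L1 stands at 90.1%, above all other genes of the chromosome.

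At the ends of genes, a missing summit was confined to the beta-defensin and BPI fold genes. A summit lay within 1 kb of an end in 34 of 45 coding genes (75.6%), against 88.4% on the rest of chromosome 20 and 83% of all coding genes. The median of the highest fold at an end, counting 0 for a gene without a summit, was 24.8, against 50.8 on the rest of chromosome 20. It moved with the distance used: within 0.5 kb it was 2.15, against 40.7, and within 2.5 kb it was 39.5, against 56.9. All 11 genes without a summit were beta-defensin or BPI fold genes, and the 30 genes outside these families each had one. Some of those summits were weak, at MYLK2 (1.63-fold), FOXS1 (2.15-fold), REM1 (2.35-fold) and EFCAB8 (2.81-fold), below that of DEFB115 (4.38-fold). Without these clusters the median was 66.9, against 52.5 on the rest of chromosome 20 without its own genes of these families, a comparison in which the interval has by construction lost every gene without a summit. Folds above 100 were reached by 11 of the 45 (24.4%), against 27.8% on the rest of chromosome 20 and 29.2% of all coding genes, a share close to the background. Some ends share a peak: PLAGL2 and POFUT1 lie end to end under the same 153-fold summit, DUSP15 and TTLL9 under the same 24.8-fold summit.

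In the list named growth and division, whose members have varied functions, 8 of 10 genes were above 43.5, the median of all coding genes. By definition, as many of all coding genes lie above that median as below it. PDRG1, a DNA damage-regulated gene, had 185-fold at its end, and TPX2, a spindle assembly factor, 172-fold. PLAGL2, a zinc finger transcription factor, and POFUT1, an enzyme that fucosylates Notch receptors, shared a summit of 153-fold. HM13 had 120-fold, MAPRE1, which encodes the microtubule end-binding protein EB1, 114-fold, the kinesin gene KIF3B 65.1-fold and CDK5RAP1, which modifies mitochondrial tRNA, 61.2-fold. Those below the median were COMMD7 (37.9-fold) and EFCAB8 (2.81-fold).

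Blood and signalling genes ranged widely, with 5 of 8 above the median of all coding genes. BCL2L1 and ASXL1 led, followed by CBFA2T2, a corepressor of the ETO family, with 153-fold, and ID1 with 152-fold. The CBFA2T2 peak was the last inside the interval, 10050 bases from its edge, and the next peak outside had 2.54-fold. DUSP15, a phosphatase, had 24.8-fold, NOL4L 4.33-fold within 1 kb of an end although a 59.1-fold peak of 7377 bases covered an end, and REM1, a small GTPase, 2.35-fold. Around ASXL1 the peak at the start stood alone: of 26 peaks over the gene only 1 other exceeded 20-fold (25.1-fold), and the median was 2.61.

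Regulators of DNA and transcription had a median of 152-fold over 8 genes, 6 of them above the median of all coding genes. This list shares ASXL1, ID1, PLAGL2, CBFA2T2, TPX2 and NOL4L with the lists above. DNMT3B had 74.8-fold at its annotated gene start (summit 0.070 kb inside, peak 32761370 to 32765839) and peaks of 25.1-fold and 23.8-fold in its body, 16.2 and 27.9 kb from the start. FOXS1, a forkhead factor gene, had 2.15-fold within 1 kb of an end, while a 39.5-fold peak covered an end.

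Genes of muscle, vessel and nerve had a median of 24.8-fold, below the 43.5 of all coding genes. Of 7 genes, 3 were above the median of all coding genes, close to the even split that a median gives. XKR7 had 61.4-fold and CCM2L, a gene of endothelial cells, 47.0-fold. TTLL9 had 24.8-fold at its gene ends, below its inner start, and FOXS1 is in this list too. COX4I2, a cytochrome oxidase subunit, had 8.61-fold and MYLK2, the myosin light chain kinase of skeletal muscle, 1.63-fold within 1 kb, although a 36.7-fold peak covered an end. Of 4 genes in no list, TM9SF4 had 123-fold, MCTS2 88.1-fold, C20orf203 61.6-fold and SUN5, a gene of sperm heads, 15.2-fold.

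The antimicrobial and mucosal clusters had only weak summits at gene ends, up to 4.38-fold, but were not equally poor in peaks. The second block, with the beta-defensins, held 9 peaks and was 1.64% covered. The ninth, with most of the BPI fold genes, held 29 and was 6.03% covered, against a median of 7.23% on chromosome 20. BPIFB3 lay 35.4% under peaks. Among 7 beta-defensin genes only DEFB115 (4.38-fold) and DEFB124 (1.62-fold) had a summit at an end, the second at a summit that also lies within 1 kb of REM1. DEFB116, DEFB118, DEFB119, DEFB121 and DEFB123 had none. The longest stretch without a peak, 99799 bases (31313778 to 31413576), holds all or part of DEFB118, DEFB119 and DEFB121. The next longest, 81076 bases (31076182 to 31157257), holds no coding gene, and that of 66124 bases (33096531 to 33162654) holds all or part of BPIFB4 and BPIFA2. Among 8 BPI fold genes BPIFB1 (3.15-fold) and BPIFB3 (2.35-fold) had one, and BPIFB2, BPIFB6, BPIFB4, BPIFA2, BPIFA3 and BPIFA1 had none. Peaks of 33.5-fold inside BPIFB4, 31.6-fold inside BPIFB3 and 17.2-fold inside BPIFB1 lay away from the ends. Between DEFB123 and DEFB124 a peak of 29.4-fold, the highest of the second block, lay 4865 bases from an end of DEFB124.

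Among noncoding genes, a summit lay within 1 kb of an end of 18 of 20 long noncoding RNA genes (90%, median 17.2-fold), against 57.1% on the rest of chromosome 20 (median 2.36-fold) and 54.9% of all. These are not separate sites. HM13-AS1 and LOC107985416 share a summit, as do LOC124904883 and BCL2L1-AS1, and LOC124904888 and LOC105372594 (17.2-fold). LOC105372588, LOC124904885, LOC124904889 and LOC119746555 share theirs with the coding genes ID1, KIF3B, CDK5RAP1 and EFCAB8. The gene richness of the interval was not taken into account. Among pseudogenes it did so in 5 of 20 (25%), against 22.4% on the rest of chromosome 20 and 24.7% of all.

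**Figure D5:**
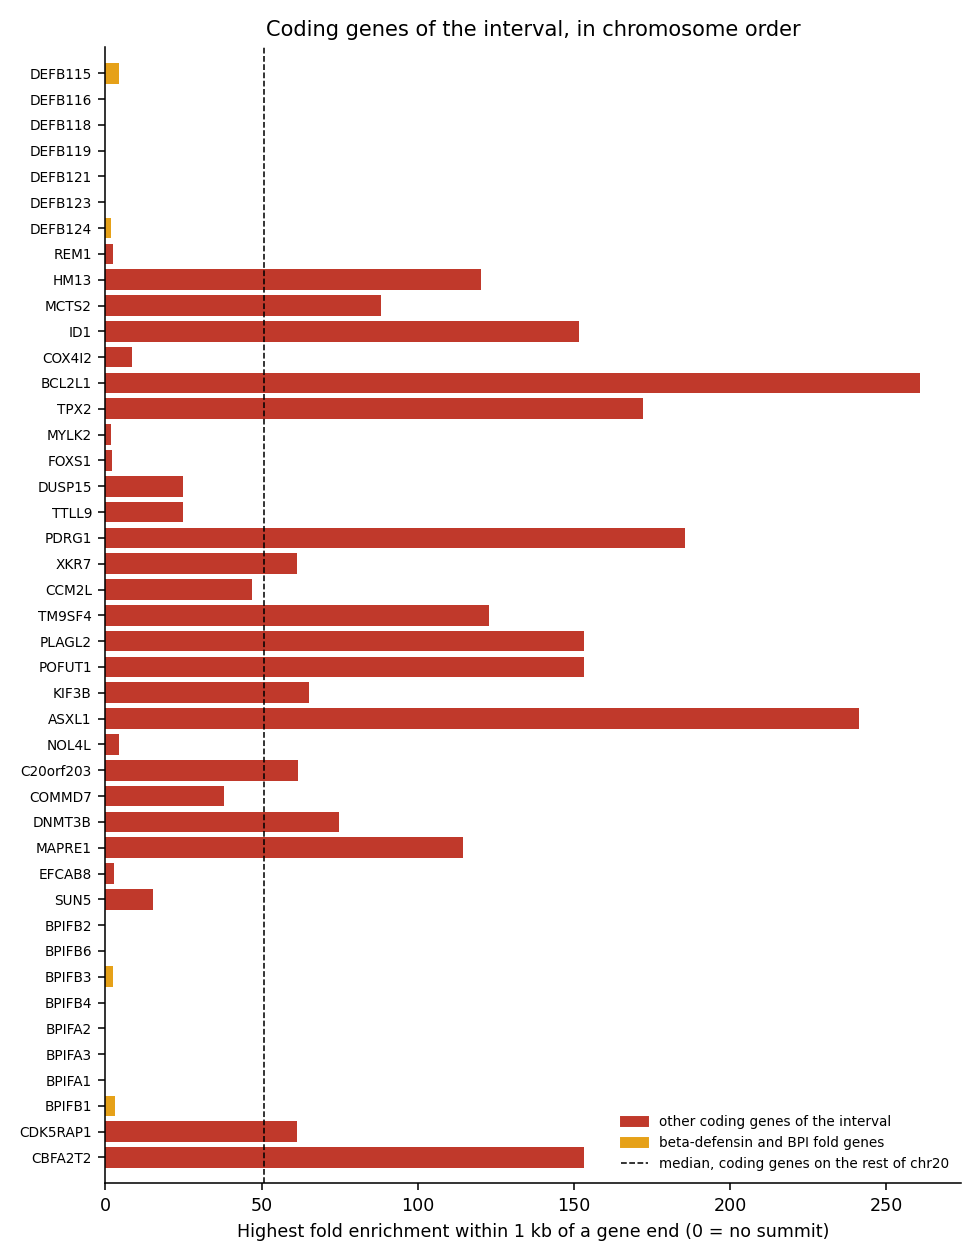
Highest fold enrichment within 1 kb of either gene end (horizontal axis, 0 for no summit) for 43 of the 45 coding genes of the interval, in chromosome order from top to bottom. BCL2L1 (261-fold) and ASXL1 (241-fold) stand highest, the beta-defensin and BPI fold genes in yellow reach at most 4.38-fold, and the dashed line is the median of the rest of chromosome 20 (50.8-fold).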

How the data were processed

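The libraries come from blood progenitors derived from H1 cells, per the labels. The submitters' processing notes name Picard 2.2.4, Bowtie2 2.2.8 and Trim Galore 0.6.5, and the deposited peak names carry MACS 2.1.0 and GENCODE 36. Which libraries were pooled, the read filters and any shift for the transposase are not given in the sources used here. The deposited list gives each peak a fold enrichment (a linear ratio), a score, and a −log10 p from the authors' caller, and an offset of the summit. Position, summit and fold are reported, and the −log10 p was used only in fitting the background. The depth of single libraries is unknown. With a background of 93.52, 100% of the 403 pileups under 1000 in the interval came out whole to within 0.1, as did those of the rest of the list.

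Summits, covered bases and folds were counted in Python 3.11.15 using pandas 2.3.3, numpy 2.4.6 and scipy 1.17.1. Plots were drawn by matplotlib 3.10.9. The window counts were tested on simulated data. Genes and promoters came from RefSeq tables of GRCh38.p14. A gene end reaches 1 kb to either side, and both ends of a gene were used, since only 33 of 45 genes had a listed start. No test was run, as genes and windows are not replicates. The 24 windows of the chromosome included the interval. Named genes are the role lists and ID1, BCL2L1, ASXL1 and DNMT3B, the highest and widest peaks, the highest distal peaks, the genes with no summit and the longest stretches without a peak, of which not all are given. Of the listed genes, PXMP4, NECAB3 and ZNF341 lay outside the interval. Some genes of the lists are counted but not reported here by name. TM9SF4, C20orf203, MCTS2, SUN5 and the coverage of gene bodies were added after values were seen. The members and lists were chosen with earlier results of these data known. The alternatives were a list cut to the peaks above its median fold, other windows, other distances from gene ends, any overlap, and leaving out gene clusters. Added after the data were seen were leaving out the most covered block and the same gene clusters elsewhere on the chromosome.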

Additional observations from a re-analysis of the deposited data

How the results depend on the processing

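Of 54 recomputed values, 48 kept their direction and 6 turned it. The median fold of the interval relative to the other windows was 0.906. With only the peaks above the median fold of the whole list it was 1.39. For distal peaks these ratios were 0.925 and 1.26, and the distal density ratio moved to 1.65. The cut was made on fold itself, so this choice selects on the value compared. Without the beta-defensin and BPI fold genes, the share of genes with a summit was 11.6 points above the rest of chromosome 20, in place of 12.9 below (a difference of -12.9), and the median fold 16.1 above, in place of -26.0. Leaving these families out of the rest of chromosome 20 too, chosen after the data were seen, gave 10.9 points and 14.3. The 11 genes without a summit are all in these families, so the turn follows from their removal. Within 0.5 kb of gene ends the difference in median fold was -38.5. With no window left out, the covered bases were 3.18 times the median. Against windows of all chromosomes but 8 and Y, density was 2.07 times and coverage 3.55 times the median. Against the 8 gene-rich windows, the ratios were 1.16 for density, 1.63 for coverage and 2.35 for peaks above 100-fold. Without the block around ID1 and BCL2L1, they were 2.49 for coverage and 3 for peaks above 100-fold, and distal peaks above 100-fold numbered 6 in place of 10. Coverage was scaled to the remaining length there, and the counts were not. Other causes were not tested. No paired analysis was possible because the list holds no value per library. Leaving out replicates was not possible for the same reason. Unknown depth limits what can be said of weak peaks.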

Other observations

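HM13-AS1 and LOC107985416 shared the 197-fold summit beside HM13. LOC105372588 lay under the ID1 peak. The hairpin of miR-3193 (MIR3193, 31607186 to 31607240) also lay under the ID1 peak, which ends at 31609751, whereas MIR1825 lay under a peak of 3.07-fold. MCTS2, a retrogene inside HM13 that is known to be imprinted, had 88.1-fold at an end.

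On the centromere side of the beta-defensins, 5 adjoining peaks filled 98.6% of a stretch of 24.6 kb (31051601 to 31076181) at low fold, 2.93 to 7.90, in intergenic sequence. They include wide peaks of 10427 and 7726 bases. The first of them is the first peak inside the edge, and the nearest one outside it, 77653 bases from the edge, had 1.91-fold. Among 1078 other windows of 2.5 Mb on chromosomes 1 to 22 and X apart from chromosome 8, the interval ranked 17th by covered bases, 40th by density and 49th by peaks above 100-fold.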
